A study of Mus musculus with 8 samples.

Results

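A block of the ligand was set directly against a block of its signal transducer in the embryonic mouse molar. The agents were the antibody 5E1, which binds the secreted ligand Shh, and cyclopamine, a plant alkaloid that inhibits Smo, the membrane protein that passes the signal into the cell. The comparison took the 2 arrays titled as 5E1 and the 2 titled as cyclopamine, 4 of the 8 arrays of the series. Each array held RNA of molar tooth germs dissected from the mandibles of ICR embryos, an outbred stock. The mothers had received 1 intraperitoneal dose on embryonic day 14, and the embryos were taken 24 hours later. Both agents were given at 10 mg per kg body weight, so mass and time were matched, while the number of molecules was not. The other 4 arrays were 2 of 40-1a, also at 10 mg per kg, and 2 of 1 ml PBS. 40-1a is an antibody against β-galactosidase, used as a control antibody, and PBS is buffered saline. Their signals are given beside the results as reference levels. The labels do not name the vehicle of cyclopamine. The agents reached the embryos through the mother, so the dose in the tooth germ is not known, and the design restricted neither agent to a cell type.

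As background, Shh made by the dental epithelium binds Ptch1 on receiving cells, which frees Smo from inhibition, and Gli transcription factors then switch on target genes. Ptch1, Gli1 and Hhip are themselves targets, so their transcripts serve as a readout of the response in many tissues. In the molar, Shh comes from the enamel knot, a signalling centre of non-dividing epithelium that also secretes Fgf, Bmp and Wnt ligands and steers cusp formation, and Sostdc1, a secreted inhibitor of Wnt and Bmp, surrounds it.

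The values are probe set signals on a linear scale, 1 for each of 45101 probe sets per array. Differences are given as log2(signal + 9) after 5E1 minus that after cyclopamine, with the standard error (SE) of a limma fit to all 8 arrays, so a negative value is a lower signal after 5E1. Adding 9 shrinks the folds of weak signals. The labels call the arrays of a group biological replicates but do not say whether they came from separate litters, and the spread behind each p-value is that between these arrays, which may be technical. An exact permutation test of 2 arrays against 2 cannot go below 0.333 two-sided. The tissue label was checked on 7 tooth genes: Msx1, Pax9, Barx1, Shh, Lhx8, Sp6 and Krt14 all had signals of at least 910.3 on each of the 4 arrays. The 8 arrays fell into 3 clusters that cut across the injections. 5E1 replicate 1 clustered with replicate 1 of 40-1a and PBS, 5E1 replicate 2 and cyclopamine replicate 2 clustered with 40-1a replicate 2, and cyclopamine replicate 1 clustered with PBS replicate 2. Cyclopamine replicate 1 also stood apart in its 18S ribosomal RNA control probe sets, where the mean was 2548 and the remaining 7 arrays had 52.9 to 447.6. Across genes, the 4 pairs of a 5E1 and a cyclopamine array correlated at 0.953 to 0.980, the highest being the pair of replicate 2 arrays, while the 2 arrays of 5E1 correlated at 0.949 and those of cyclopamine at 0.964. The number of arrays limits the precision.

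Between the agents, the Hedgehog response genes Ptch1 and Gli1 had lower signals after 5E1, as did the keratin gene Krt36 and the neurotrophin receptor gene Ntrk2, and Hhip was lower at weak signals. In the other direction, Dusp6 and Spry2, negative regulators of FGF signalling, had higher signals after 5E1. No gene passed the test over all genes. Of 13008 genes tested, limma called 0 (0%) at an adjusted p of 0.05. The smallest adjusted p by limma, 0.770, was shared by Dusp6, Ptch1, Krt36 and Ntrk2. At an unadjusted p under 0.05 there were 303 genes (2.33%), 143 higher (1.1%) and 160 lower (1.23%) after 5E1. On log2 of the deposited signal, limma called 0 (0%) of all 45037 probe sets that are not controls, with 1569 (3.48%) at an unadjusted p under 0.05. At least 2-fold and without overlap, 2759 probe sets (6.13%) were higher and 1534 (3.41%) lower, weak probe sets included.

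The size of the differences was therefore described by a second rule: the signals of the 2 arrays of each agent do not overlap. By this rule 1433 genes (11%) were higher and 2225 (17.1%) lower after 5E1, and adding a difference of at least 2-fold left 59 higher (0.454%) and 55 lower (0.423%), 114 in all. The split of the larger set rests on the scaling and on the choice of probe set. It was 690 higher and 3186 lower with each array centred on its median, which moved the median difference of all genes from -0.04 to -0.175, and 1955 higher and 1680 lower with the mean of each gene's probe sets. Small positive differences, below that shift, turn negative with the centring. Leaving out 1 of the 4 arrays eases the rule by its construction: the 2-fold counts were then 150 higher and 143 lower without cyclopamine replicate 1, 224 and 188 without cyclopamine replicate 2, 281 and 283 without 5E1 replicate 2, and 245 lower without 5E1 replicate 1.

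The pair of replicate 1 arrays and the pair of replicate 2 arrays have no array in common, so each gives its own difference for every gene. Over the 13008 genes these differences correlated at r = -0.0041 (rho = -0.019), a description across genes, which are not independent replicates. At least 2-fold, the replicate 1 pair held 706 genes, 364 higher (2.8%) and 342 lower (2.63%) after 5E1, and the replicate 2 pair 324, 125 higher (0.961%) and 199 lower (1.53%). Of these, 33 were in both sets in the same direction, 4.67% of the first set and 10.2% of the second, and 25 were in both in opposite directions. The 18 that were at least 2-fold lower in both pairs included Gli1, Ptch1, Hhip, Foxd2, Krt36, Slco4a1, Ntrk2 and Smoc1, and the 15 higher included Fgf20, Krt73, Reg3b, Ppwd1, Lce3b and AU021092. These names were picked from the 33 after their values were seen.

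**Figure D1:**
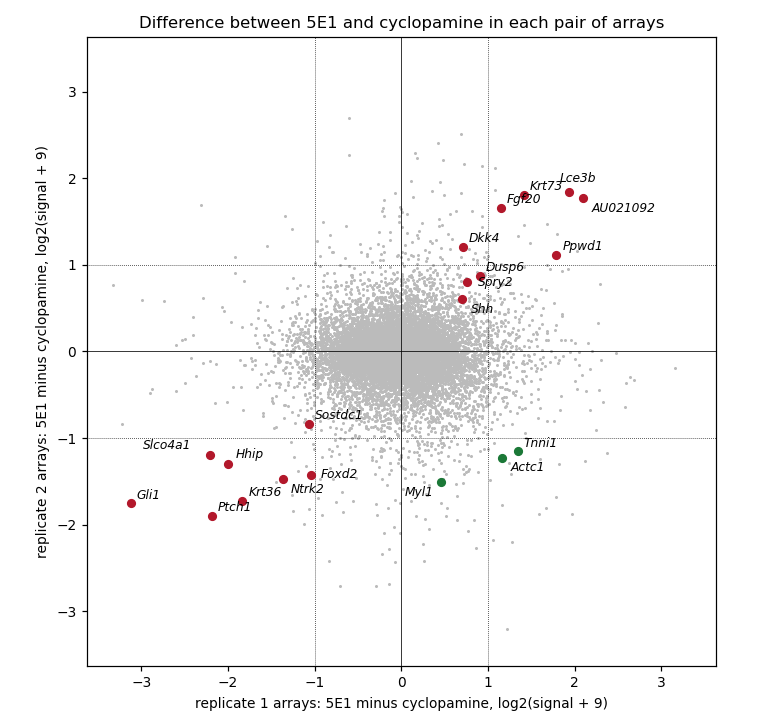
Difference between 5E1 and cyclopamine, log2(signal + 9), in the replicate 1 arrays (horizontal) and in the replicate 2 arrays (vertical) for 13008 genes, with 2-fold marked by dotted lines. The cloud has no slope (r = -0.0041), and Ptch1 at -2.19 and -1.89 and Gli1 at -3.12 and -1.75 lie far to the lower left, while the muscle genes Actc1 at 1.16 and -1.23 and Tnni1 at 1.34 and -1.15 (green) lie on opposite sides of 0 in the 2 pairs.

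To place each agent against the control injections, the 4 control arrays were set beside the 4 arrays compared. Both 5E1 arrays lay below all other 6 for 397 genes (3.05%) and above them for 232 (1.78%), and both cyclopamine arrays lay below the other 6 for 352 (2.71%) and above them for 524 (4.03%). Among the 55 genes at least 2-fold lower after 5E1, 29 had both 5E1 arrays below the other 6, 6 had both cyclopamine arrays above them and 1 had both patterns. Among the 59 at least 2-fold higher after 5E1, 11 had both 5E1 arrays above the other 6, 27 had both cyclopamine arrays below them and 1 had both. These counts describe the sets; their members had to differ between the agents to enter them.

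The Hedgehog targets with low signals after 5E1 were those most used as a readout. Ptch1, the Shh receptor, had signals of 2122 and 1552.5 after 5E1 and 9683 and 5793 after cyclopamine, with 7180.1 to 11322 on the 4 control arrays. Both 5E1 arrays were thus below every other array, while 1 cyclopamine array lay within the controls' range and the other below it. The difference was -2.04 ± 0.30 (SE, n = 2 arrays per group), 4.11-fold lower after 5E1, with a 95% interval of -2.74 to -1.34 and an adjusted p of 0.770 by limma. It was -2.19 and -1.89 in the replicate 1 and replicate 2 pairs. With the replicate number as a block, limma called Ptch1 (adjusted p = 0.0131), and the 3 array clusters as a block called Ptch1 and Gli1 (adjusted p = 0.00666 and 0.0149). The clusters come from the same values they were applied to. The 3 probe sets of Ptch1 gave -2.04 to -0.97 on log2 of the deposited signal, and the arrays overlapped in the one nearest 0.

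Gli1, the transcription factor whose gene is induced by the pathway, had signals of 239.7 and 348 after 5E1 against 2157 and 1193 after cyclopamine. The controls spanned 1070.2 to 2143, a range that 1 cyclopamine array slightly exceeded and the other lay within, and both 5E1 arrays were below it. The difference was -2.44 ± 0.40, 5.41-fold lower after 5E1, with a 95% interval of -3.37 to -1.51 and an adjusted p of 0.879 by limma. Hhip, which encodes a membrane protein that captures Hedgehog ligands, had weak signals of 35.0 and 31.5 after 5E1 and 167 and 90.7 after cyclopamine. Both 5E1 values were also below the 4 controls (77.7 to 236), and the difference was -1.65 ± 0.46. Its 4 probe sets all gave negative differences, 2 of them without overlap. The fold for Hhip is limited by signals near the 60.3 used as the lowest mean level.

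Foxd2, a forkhead factor of the facial mesenchyme, had signals of 131 and 49.1 after 5E1 and 278 and 147 after cyclopamine, a difference of -1.23 ± 0.49 that ran from -1.86 to -0.60 with 1 array left out. The lower of its 5E1 signals is below the 60.3 used as the lowest mean level, which limits this fold too. Foxf2, a Hedgehog-responsive forkhead gene, had signals of 133 and 97.4 after 5E1 and 506 and 132 after cyclopamine, which overlap between the agents. Its difference of -1.13 ± 0.62 was -0.20 without cyclopamine replicate 1. The apoptosis inhibitor Bcl2 was lower after 5E1 without overlap by a small amount, -0.33 ± 0.23. The other 10 tested targets had arrays that overlapped, with differences from -0.47 (Osr2) to 0.56 (Prdm1), and among them the cell cycle genes Ccnd1 (-0.13 ± 0.14), Cdk6 (-0.20 ± 0.18) and Mycn (-0.09 ± 0.32) had differences near or below their SE.

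Of 19 measured targets, 16 were tested, and Nkx2-2, Nkx6-1 and Foxl1 fell below the level filter. Of the 16, 4 had a positive and 12 a negative difference. Without overlap, 0 were higher and 5 lower after 5E1, where 11% and 17.1% of all genes were. The median was -0.29 against -0.04 over all genes, -0.37 and -0.35 in the 2 pairs, and it moved with single arrays: -0.59 without 5E1 replicate 1, -0.05 without 5E1 replicate 2, -0.07 without cyclopamine replicate 1 and -0.67 without cyclopamine replicate 2. With the mean of each gene's probe sets it was -0.04. Both 5E1 arrays were below the other 6 for 4 of the 16 targets, Ptch1, Gli1, Hhip and Foxd2, where 3.05% of all genes were. Both cyclopamine arrays were below the other 6 for 0 of the 16, where 2.71% of all genes were. Mesenchymal marker genes, which share the tissue layer of many of these targets, overlapped between the agents: their mean level relative to the 8 arrays was 0.46 and -0.95 after 5E1 and 0.24 and -0.46 after cyclopamine. 5E1 replicate 2 had the lowest mesenchymal level of the 8 arrays, and its part in the result was not tested. In these bulk samples, fewer cells of a type and less RNA per cell cannot be told apart.

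**Figure D2:**
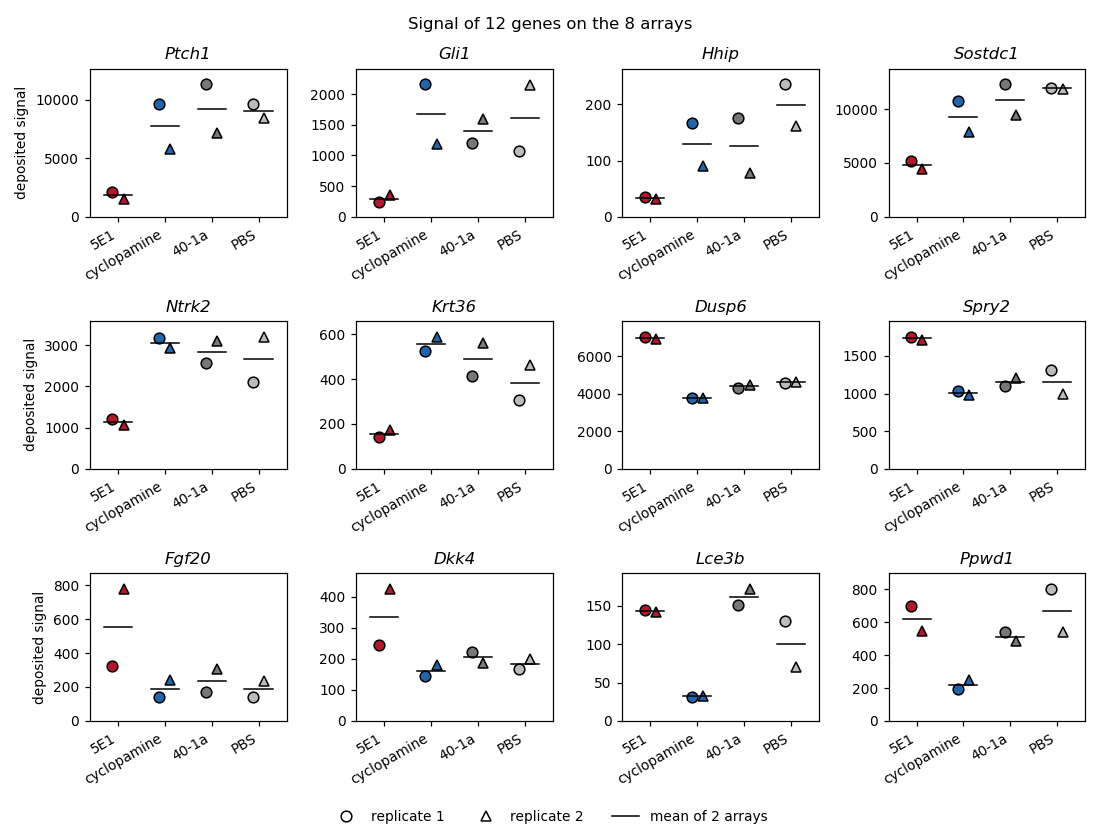
Deposited signal (linear axis from 0) of 12 genes on the 8 arrays by injection, with circles for replicate 1, triangles for replicate 2 and a bar at the mean of the 2 arrays. Ptch1, Gli1, Hhip, Sostdc1, Ntrk2 and Krt36 have both 5E1 arrays at the bottom, Dusp6, Spry2, Fgf20 and Dkk4 have both at the top, and Lce3b and Ppwd1 have both cyclopamine arrays at the bottom.

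The ligand showed the opposite sign to Ptch1, Gli1 and Hhip. Shh had signals of 7388 and 9306 after 5E1, 4549 and 6134 after cyclopamine and 4562 to 7117 on the controls, so both 5E1 arrays were the highest of the 8. The difference was 0.65 ± 0.27 (95% interval 0.03 to 1.27), 1.57-fold, with an adjusted p of 1 by limma, and it was 0.70 and 0.60 in the 2 pairs. Leaving out each array in turn gave 0.43 to 0.86, the lowest without cyclopamine replicate 1. Both probe sets of Shh were higher after 5E1. Of the 6 tested genes of ligand production and release, 5 had a positive difference, among them Scube3 (0.48 ± 0.29), of a family of secreted proteins that includes Hedgehog release factors. Disp1, which exports the lipid-modified ligand, had a difference of -0.27 ± 0.28. The median of the 6 was 0.39, and -0.04 without cyclopamine replicate 2.

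Genes that receive and relay the signal lay on both sides of 0. Smo, the target of cyclopamine, had signals of 2918 and 2848 after 5E1 and 3464 and 3026 after cyclopamine, a difference of -0.17 ± 0.14 with a 95% interval of -0.48 to 0.15. The intervals of the co-receptors Gas1 (-0.55 to 1.04), Cdon (-0.54 to 0.81) and Boc (-0.54 to 0.60), of the repressor Sufu (-0.69 to 0.21) and of the transcription factors Gli2 (-0.76 to 0.46) and Gli3 (-0.69 to 1.20) all held 0, and Sufu turned to 0.51 with the mean of its probe sets. Their width does not show that the agents act alike on these genes. Evc, a ciliary protein that binds Smo, had the most negative difference of this group, -0.76 ± 0.33, and was -0.36 without cyclopamine replicate 1. Of the 18 genes tested, 11 had a positive and 7 a negative difference, 3 were higher and 4 lower without overlap, where 11% and 17.1% of all genes were, and the median was 0.04, which turned to -0.09 with median centring, -0.14 without 5E1 replicate 1 and -0.02 without cyclopamine replicate 2.

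Among FGF target genes, Dusp6 and the Sprouty genes Spry1 and Spry2 had higher signals after 5E1 than after cyclopamine, while the feedback inhibitors Il17rd, Spred1, Spred2 and Spred3 did not. Dusp6, a phosphatase that switches off ERK, had signals of 7063 and 6941 after 5E1, 3759 and 3781 after cyclopamine and 4327 to 4660.1 on the controls. The 4 arrays compared fell on opposite sides of the controls, with the 5E1 arrays above all 4 and the cyclopamine arrays below all 4. The difference was 0.89 ± 0.12, 1.86-fold (95% interval 0.61 to 1.17), and 0.91 and 0.88 in the 2 pairs. Dusp6 shared the smallest adjusted p of all genes, 0.770 by limma, with Ptch1, Krt36 and Ntrk2. With each array left out the difference of Dusp6 stayed between 0.88 and 0.90. Spry2, an inhibitor of receptor tyrosine kinase signalling, had signals of 1756 and 1712 after 5E1, 1036 and 976 after cyclopamine and 992 to 1316 on the controls, a difference of 0.78 ± 0.18. A second, weaker probe set of Spry2 went the other way without overlap, by -0.37 on log2 of the deposited signal.

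Spry1, of the same family, had signals of 2945 and 2304 after 5E1 and 1876 and 1835 after cyclopamine, a difference of 0.49 ± 0.17, with both cyclopamine arrays below the other 6. The ETS factors Etv4 and Etv5, which respond to FGF, had signals of 789 and 1085 and of 1599 and 1989 after 5E1 against 639.7 and 507 and 1331 and 1132 after cyclopamine. The agents did not overlap for either gene, but the control arrays of both reached into the 5E1 range (266 to 1032 for Etv4 and 1001 to 1680.5 for Etv5). Il17rd (-0.22 ± 0.36), Spred1 (-0.02 ± 0.38), Spred2 (-0.02 ± 0.18) and Spred3 (-0.10 ± 0.35) had small negative differences, and each was positive with 1 or more of the 4 arrays left out. Of the 13 FGF targets tested, 9 had a positive and 4 a negative difference, 6 were higher and 0 lower without overlap, where 11% and 17.1% of all genes were, and the median was 0.49. The median was 0.26 without 5E1 replicate 1, 0.27 without cyclopamine replicate 2 and 0.27 with the mean of each gene's probe sets.

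Several ligands and inhibitors of the enamel knot had higher signals after 5E1. Fgf20, an early epithelial FGF of the knot, had signals of 325 and 779 after 5E1, 142 and 240.2 after cyclopamine and 143 to 303 on the controls. Both 5E1 arrays exceeded the other 6, though they differed more from each other than the other groups did. The difference was 1.40 ± 0.50, 2.65-fold, and ran from 0.79 to 2.02 with 1 array left out. Fgf9, another epithelial FGF, had signals of 296 and 594 after 5E1 and 198 and 257 after cyclopamine, a difference of 0.87 ± 0.35 (0.38 to 1.36 with 1 array left out). Both of its probe sets were higher after 5E1 without overlap. Dkk4, a secreted Wnt inhibitor made in the knot, had signals of 244 and 427 after 5E1 and 146 and 180.0 after cyclopamine, a difference of 0.96 ± 0.32 (0.57 to 1.35 with 1 array left out). Bmp2, a ligand of the knot, had signals of 621 and 606 after 5E1 and 455 and 371 after cyclopamine, a difference of 0.57 ± 0.23. For all of these 4 genes both 5E1 arrays lay above the other 6.

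Of 20 enamel knot genes, 18 were tested, 15 with a positive and 3 with a negative difference. Without overlap, 9 were higher and 0 lower, where 11% and 17.1% of all genes were, and 6 of the 18 had both 5E1 arrays above the other 6, where 1.78% of all genes had. The median was 0.42, 0.39 and 0.59 in the 2 pairs and 0.29 with median centring. The list shares Shh, Dkk4, Lef1 and Fst, among others, with other lists here. Like all lists here, it was written with earlier results of these data known, so these shares are a description. The negative members were Bmp4 (-0.61 ± 0.44), a ligand also made in the dental mesenchyme and 0.10 without 5E1 replicate 2, Wnt6 and, at -0.01, the receptor Edar. Fgf4, a ligand regarded as a marker of the knot, had signals of 135 and 119 after 5E1 and 76.2 and 105 after cyclopamine, a difference of 0.46 ± 0.35. The knot is epithelial, and the mean level of 26 dental epithelium markers relative to the 8 arrays was -0.42 and 0.55 after 5E1 and -0.04 and 0.41 after cyclopamine. The part of epithelial content in the sizes of these differences was not tested.

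Of 19 tested genes known to respond to Wnt and β-catenin, 13 had a positive and 6 a negative difference. Myc had signals of 1444 and 1819.8 after 5E1 and 1048 and 1204 after cyclopamine, a difference of 0.53 ± 0.19, and both 5E1 arrays exceeded the controls (896 to 1123). Apcdd1, a membrane inhibitor of Wnt signalling, had signals of 6579 and 5637 after 5E1 and 5091 and 2821 after cyclopamine, a difference of 0.68 ± 0.27 that ran from 0.26 to 1.11 with 1 array left out. Sp5, a transcription factor induced by Wnt and named here after its values were seen, had signals of 597 and 1218 after 5E1 and 439 and 439.5 after cyclopamine, a difference of 0.94 ± 0.39 (0.43 to 1.45), but its 5E1 and control signals (300.5 to 605) overlapped. Without overlap, 7 of the 19 were higher and 0 lower, where 11% and 17.1% of all genes were. Axin2, a feedback inhibitor often used as a readout of Wnt signalling, had overlapping signals of 600.5 and 769 after 5E1 and 1173 and 764 after cyclopamine, a difference of -0.47 ± 0.32 (-0.78 to -0.17 with 1 array left out). The median of the list was 0.24, 0.10 with median centring, and 0.08, 0.43, 0.37 and 0.14 without 5E1 replicate 1, 5E1 replicate 2, cyclopamine replicate 1 and cyclopamine replicate 2. The most negative was Twist1, a mesenchymal factor, at -0.79 ± 0.56 with overlapping arrays.

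The promoters of these target genes were searched for the motif CTTTGATC (GATCAAAG on the other strand), a form of the site bound by TCF and LEF factors, a search chosen after the data were seen. The RefSeq table of promoter windows (build GRCm38.p6, 300 bases each) held 17 windows for 11 of the 20 listed genes. The motif was in 2 of the 17 and in 0.938% of all 32851 windows. The 250 bases before the start of these 2 genes are printed in the direction of transcription, with the motif in capitals, because they are the only windows of the list with a match. For Sp5 (chr2:70474673-70474922, plus strand) the motif ends 97 bases before the start, and for Tnfrsf19 (chr14:61037988-61038237, minus strand) it ends 196 bases before.
Sp5: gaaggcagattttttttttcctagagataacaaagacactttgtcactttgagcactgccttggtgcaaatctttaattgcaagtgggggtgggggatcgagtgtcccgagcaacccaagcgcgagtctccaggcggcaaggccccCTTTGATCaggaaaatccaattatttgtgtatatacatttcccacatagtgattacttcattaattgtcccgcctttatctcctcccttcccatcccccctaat
Tnfrsf19: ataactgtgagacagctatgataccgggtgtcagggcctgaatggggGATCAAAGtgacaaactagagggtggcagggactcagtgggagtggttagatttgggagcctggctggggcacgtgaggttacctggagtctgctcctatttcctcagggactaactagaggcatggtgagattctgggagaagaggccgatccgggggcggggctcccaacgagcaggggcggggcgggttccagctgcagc
The 2 genes with the motif had differences of 0.94 ± 0.39 for Sp5 and 0.24 ± 0.18 for Tnfrsf19, a receptor of the TNF family, whose signals of 3744 and 3293 after 5E1 and 3495 and 2533 after cyclopamine overlapped. A match describes the letters of the window and is no sign that a factor binds there. For the Hedgehog targets, 11 windows of 11 genes were searched for the GLI motif GACCACCCA (TGGGTGGTC on the other strand). It was in 0 of the 11 and in 0.253% of all windows.

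Sostdc1, which inhibits Wnt and Bmp ligands and is expressed around the enamel knot, went against these genes. Its signals were 5146 and 4400.2 after 5E1, 10765 and 7871 after cyclopamine and 9416 to 12303 on the controls, so that both 5E1 arrays were the lowest of the 8 and 1 cyclopamine array lay between them and the controls. The difference was -0.95 ± 0.20, 1.93-fold lower after 5E1 (95% interval -1.41 to -0.49), with an adjusted p of 1 by limma and -0.72 without cyclopamine replicate 1. Both of its probe sets were lower. The other secreted inhibitors of Wnt and Bmp lay on both sides of 0. Of 16 tested, 7 had a positive and 9 a negative difference, 3 were higher and 2 lower without overlap, where 11% and 17.1% of all genes were, and the median was -0.02, between -0.37 without 5E1 replicate 1 and 0.35 without 5E1 replicate 2. Dkk3, of the Dickkopf family, was at 0.51 ± 0.25 and Sfrp4, a secreted Frizzled-related protein, at -0.80 ± 0.45.

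Beside Ptch1 and Gli1, the smallest p-values in the lower direction belonged to genes of no Hedgehog list. Krt36, a keratin of hair, nail and tongue papillae, had signals of 140.3 and 173 after 5E1, 524 and 589 after cyclopamine and 307 to 561 on the controls. The 5E1 arrays were the lowest of the 8, and the difference was -1.78 ± 0.28, 3.43-fold (adjusted p = 0.770 by limma). Ntrk2, the receptor TrkB for brain-derived neurotrophic factor, had signals of 1220.3 and 1056 after 5E1 and 3167 and 2941 after cyclopamine, a difference of -1.42 ± 0.22 that stayed between -1.52 and -1.32 with each array left out. Of its 8 probe sets 5 were lower after 5E1 and 3 higher. Those with mean signals of 2422 and 916 were both lower, and the rest, in either direction, had weak mean signals of at most 94.7. Slco4a1, an organic anion transporter, had signals of 107 and 187 after 5E1 and 524 and 439 after cyclopamine, a difference of -1.70 ± 0.29.

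The 12 genes in this direction with the smallest p also included Lypd1, a membrane-anchored modulator of acetylcholine receptors (-1.03 ± 0.23), Klhl42, an adaptor of ubiquitin ligases (-0.97 ± 0.24), Sh3bp4, an endocytic adaptor (-1.04 ± 0.26), and Slc39a8, a zinc and manganese transporter (-0.79 ± 0.20). They also included the ubiquitin ligase Trim68 (-0.98 ± 0.25) and 4933404O12Rik (-0.97 ± 0.23), whose second probe set differed by 0.11. In 11 of the 12 only the 5E1 arrays stood below the other 6. In Trim68 the 5E1 arrays were below and the cyclopamine arrays above all others. The 12 were chosen for not overlapping between the agents, so their directions are a description. Outside the 12, Smoc1, a secreted matrix protein that modulates Bmp signalling, had signals of 228 and 134 after 5E1 and 498 and 348 after cyclopamine, a difference of -1.21 ± 0.32.

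**Figure D3:**
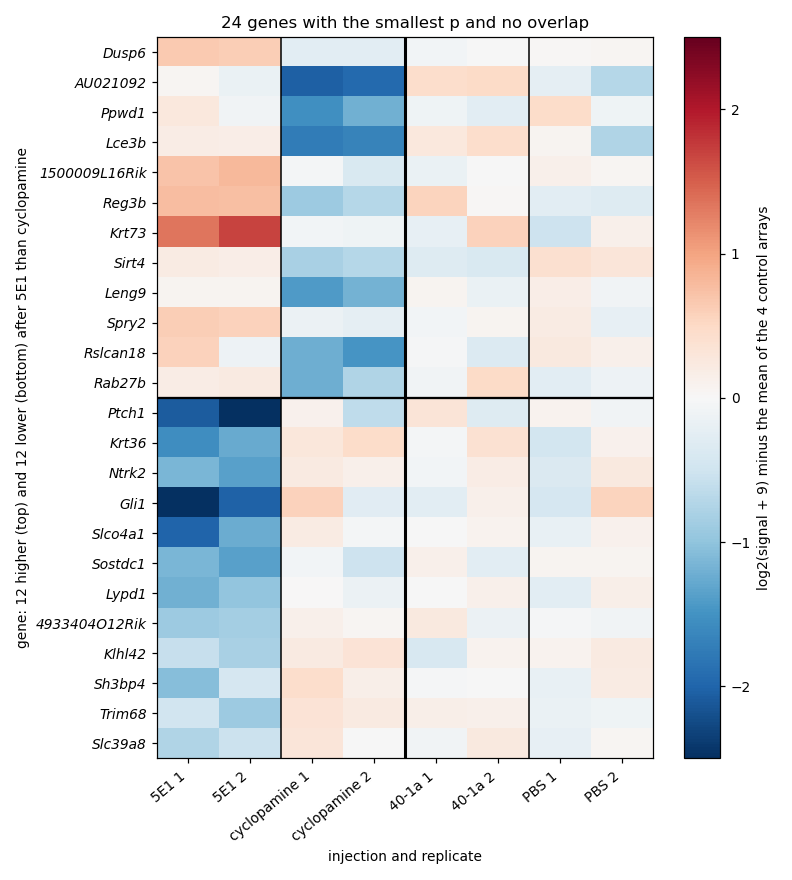
Heat map of 24 genes, the 12 with the smallest p in each direction and no overlap between 5E1 and cyclopamine, on the 8 arrays. Colour gives log2(signal + 9) minus the mean of the 4 control arrays, clipped at 2.5 on either side. In the lower 12 the blue is in the 5E1 columns, and in the upper 12 it is mostly in the cyclopamine columns, as for AU021092, Ppwd1 and Lce3b, while Dusp6, Krt73 and 1500009L16Rik are red in the 5E1 columns.

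In the higher direction, most of the 12 genes had low signals after cyclopamine. Both cyclopamine arrays alone stood below the other 6 in 7 of them, both 5E1 arrays alone stood above in 3, and both patterns held in 2. AU021092, a transcript without an assigned function, had signals of 101 and 86.1 after 5E1 and 16.9 and 18.8 after cyclopamine, with 56.3 to 140.5 on the controls, a difference of 1.93 ± 0.35. Lce3b, a protein of the cornified envelope of the epidermis, had signals of 144 and 142 after 5E1 and 31.0 and 33.1 after cyclopamine, a difference of 1.89 ± 0.35. Both genes lie close to the level filter, and their cyclopamine signals fall below 60.3. Ppwd1, a prolyl isomerase found in spliceosomes, was measured at higher signals of 695 and 547 after 5E1, 195 and 248 after cyclopamine and 483 to 803 on the controls, a difference of 1.45 ± 0.26. Sirt4, a mitochondrial sirtuin, had signals of 357 and 345 after 5E1 and 171 and 184 after cyclopamine, a difference of 0.95 ± 0.21.

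The same pattern held for Leng9 (1.37 ± 0.31), Rslcan18, a zinc finger gene (1.58 ± 0.37), and Rab27b, a GTPase of secretory vesicles (1.19 ± 0.29). The cyclopamine signals of Leng9 (37.0 and 44.7) and Rslcan18 (32.7 and 25.9) also fall below 60.3, which limits their folds. Of 4 probe sets of Rab27b the others gave smaller differences, the least 0.03. Of the 3 probe sets of Leng9, 1 differed the other way, by -1.54 on log2 of the deposited signal. The 18S signal that set cyclopamine replicate 1 apart was 2548 there and 52.9 on cyclopamine replicate 2, and its part in these values was not tested. Without cyclopamine replicate 1, AU021092, Lce3b and Ppwd1 differed by 1.88, 1.85 and 1.29. Genes high after 5E1 itself were Krt73, a keratin of the hair follicle sheath, with signals of 461 and 589.6 against 168 and 162 and 120.4 to 269 on the controls (1.61 ± 0.35), and 1500009L16Rik with 1144 and 1210.4 against 664 and 529 (0.98 ± 0.18). Reg3b, a secreted antimicrobial lectin, had 5E1 arrays above and cyclopamine arrays below all controls (1.58 ± 0.32). Its cyclopamine signals of 43.6 and 51.1 fall below 60.3 as well.

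Of the bone and tooth mineralisation genes above the filter, most had negative differences. Ibsp, bone sialoprotein, had signals of 536 and 591 after 5E1 and 1471 and 848 after cyclopamine, a difference of -0.98 ± 0.28 that was -0.58 without cyclopamine replicate 1. Alpl, the alkaline phosphatase of mineralising cells, had signals of 885 and 647 after 5E1 and 1195 and 1146 after cyclopamine (-0.62 ± 0.22), and Ifitm5, an osteoblast membrane protein, had 111 and 119 after 5E1 and 185 and 193 after cyclopamine (-0.68 ± 0.24). Of the 7 bone genes tested, 5 had a negative difference, 4 of them without overlap where 17.1% of all genes were, and the median was -0.47, or -0.19 without 5E1 replicate 2. Of 11 tooth mineralisation genes only 4 were above the filter at this stage. Odam, an enamel organ secretory protein, was the one higher after 5E1, with signals of 1379 and 1167 against 831 and 573 (0.87 ± 0.26), while Amelx (-0.92 ± 0.44), Ambn (-1.29 ± 0.78) and Ibsp had negative differences, Ambn with overlapping arrays. The median of the 4 was -0.95, or -0.48 without cyclopamine replicate 1. It rests on that filter: with no filter on low values the median of the list was -0.0063, and on log2 of the deposited signal with no filter it was 0.081.

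Other listed genes with small p-values lay in both directions. Barx1, which marks molar-forming mesenchyme, had signals of 3145 and 1391.5 after 5E1 and 5568 and 3539.6 after cyclopamine, a difference of -1.08 ± 0.44 that ran from -1.67 to -0.50 with 1 array left out. Sox9, of cartilage and epithelial progenitors, had signals of 175.5 and 360.2 after 5E1 and 647 and 578 after cyclopamine (-1.25 ± 0.48), without overlap between the agents, although the controls spanned 289.8 to 657. Kcnj8, a potassium channel of pericytes, had signals of 452 and 113 after 5E1 and 995 and 477 after cyclopamine (-1.56 ± 0.61, -2.52 to -0.60 with 1 array left out). Notch target Hey2 was higher after 5E1, with 213 and 253 against 139 and 154 (0.63 ± 0.24), while the median of 13 Notch genes was -0.19, or 0.12 without 5E1 replicate 1, and 1 of them was higher and 1 lower without overlap, where 11% and 17.1% of all genes were. For Eda and NF-kB genes, 3 of 11 were lower without overlap, where 17.1% of all genes were, and the median was -0.11 (-0.37 without 5E1 replicate 2), and for 11 Bmp targets, genes switched on by Smad signalling, 1 was higher and 1 lower without overlap, against the same shares, and the median was -0.05 (-0.11 to -0.02 with 1 array left out).

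**Figure D4:**
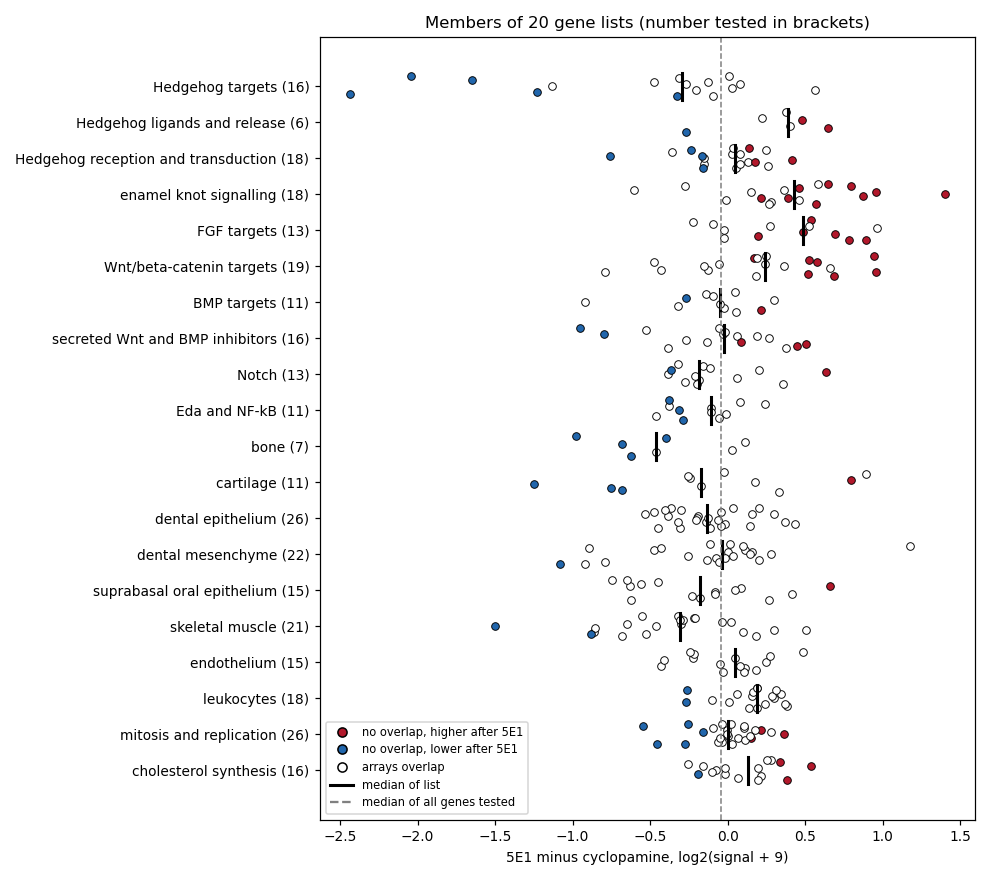
Difference between 5E1 and cyclopamine, log2(signal + 9), for each tested member of 20 gene lists, with red and blue points for members whose arrays do not overlap between the agents, black bars for list medians and a dashed line at the median of all genes (-0.04). Hedgehog targets reach to -2.44 with a median of -0.29, whereas enamel knot, FGF and Wnt targets have medians of 0.42, 0.49 and 0.24 and no blue points.

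Cell type markers differed between arrays of the same agent. For skeletal muscle, which lies next to the molar in the mandible, the summed signal of 25 measured genes was 7379 and 8875 after 5E1 and 5000.5 and 22336 after cyclopamine. Of these genes, 21 were tested. The list's median difference was 0.61 in the replicate 1 pair and -1.25 in the replicate 2 pair, and -1.39 or 0.52 with cyclopamine replicate 1 or 2 left out, so its overall median of -0.31 has no stable sign. Of 15 tested suprabasal oral epithelium genes 10 had a negative difference, and 1 was higher and 0 lower without overlap. The summed signals of the 18 measured genes of this list were 38928 and 66914 after 5E1 and 39889.7 and 89821 after cyclopamine. The 26 dental epithelium genes had 0 members without overlap in either direction, where 11% of all genes were higher and 17.1% lower, with summed signals of 96100.3 and 169317 after 5E1 and 127469 and 168287 after cyclopamine. The 22 mesenchymal genes had 1, Barx1, with 87813 and 43289 after 5E1 and 80895 and 54008 after cyclopamine. The sums overlapped between the agents in each of these 4 lists. With 1 array left out, the median difference ran from -0.94 to 0.20 for suprabasal oral epithelium, from -0.51 to 0.26 for dental epithelium and from -0.97 to 0.59 for mesenchyme.

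Of 18 leukocyte genes 15 had a positive difference, with 0 higher and 2 lower (Cd68 and Laptm5, the latter 0.26 with the mean of its probe sets) without overlap, where 11% and 17.1% of all genes were, and the medians of the 2 pairs were 0.48 and -0.12 (-0.24 to 0.54 with 1 array left out). For endothelium, 0 of 15 separated the agents, with pair medians of 0.38 and -0.27 (-0.50 to 0.58 with 1 array left out). The pair medians had opposite signs for skeletal muscle, dental epithelium, mesenchyme, leukocytes and endothelium, and were both negative for suprabasal oral epithelium (-0.07 and -0.42) and bone (-0.39 and -0.54).

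**Figure D5:**
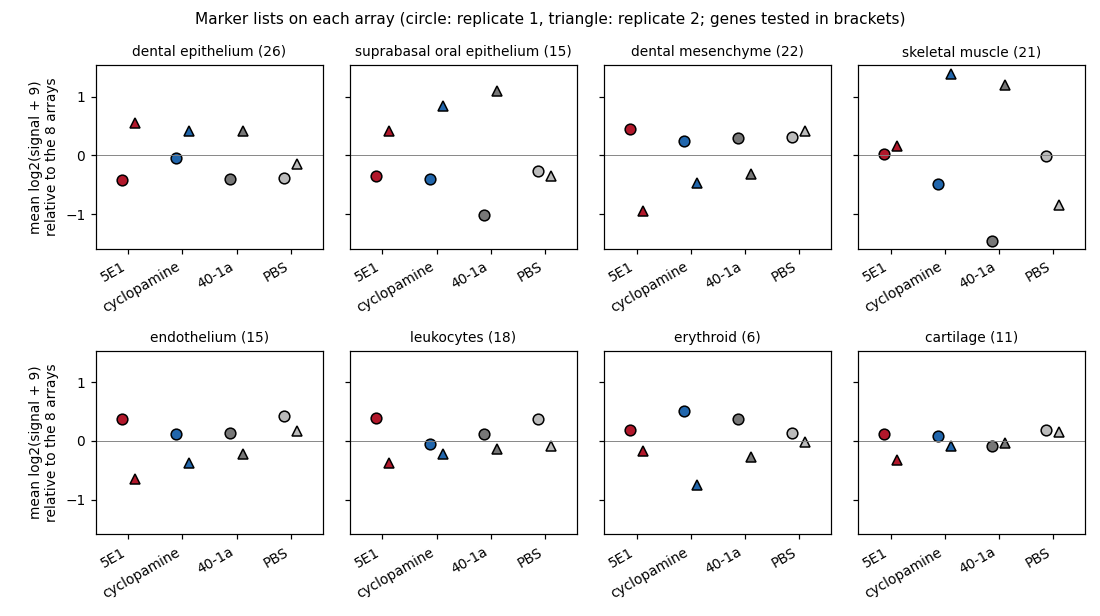
Mean log2(signal + 9) of the tested genes of 8 marker lists on each array, relative to the mean of the 8 arrays, by injection, with circles for replicate 1 and triangles for replicate 2. Skeletal muscle spans from -1.45 on 40-1a replicate 1 to 1.40 on cyclopamine replicate 2, and dental mesenchyme from -0.95 on 5E1 replicate 2 to 0.46 on 5E1 replicate 1, so the widest gap in mesenchyme is between replicates of 1 injection.

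Because each agent has its own control injection, the difference was also taken between (5E1 minus 40-1a) and (cyclopamine minus PBS). It uses the same 4 arrays as the direct comparison together with the controls, so it is not independent of it. limma called 0 of 13008 genes (0%), with 187 (1.44%) at an unadjusted p under 0.05. Ptch1, Gli1, Krt36, Ntrk2 and Dusp6 had the same sign in it: -2.04 ± 0.43 for Ptch1, -2.30 ± 0.57 for Gli1, -2.13 ± 0.39 for Krt36, -1.54 ± 0.31 for Ntrk2 and 0.96 ± 0.17 for Dusp6. The values were 1.65 ± 0.30 for Sirt4 and 1.81 ± 0.37 for Ppwd1, which were low after cyclopamine against PBS. For the Hedgehog targets as a list the median was -0.02, against -0.29 in the direct comparison, while the values of Ptch1 and Gli1 stayed close to those of the direct comparison. Hhip was at -0.95 ± 0.66, against -1.65 in the direct comparison, and Foxd2 at -1.06 ± 0.69, against -1.23. With the array clusters as a block, limma called 3 genes: Ptch1, Gli1 and Fos (adjusted p = 0.0172, 0.0294 and 0.0294). Fos, an immediate early gene, had widely spread signals of 952 and 4165 after 5E1 and 455 and 2269.8 after cyclopamine.

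In the replicate 2 arrays alone, the closest pair by correlation, the signals of Ptch1 were 1552.5 and 5793, those of Gli1 348 and 1193, and those of Dusp6 6941 and 3781, after 5E1 and cyclopamine. This pair gave medians of -0.35 for the Hedgehog targets, 0.59 for the enamel knot genes, 0.38 for FGF targets and 0.28 for Wnt targets, and the replicate 1 pair gave -0.37, 0.39, 0.30 and 0.40. The 4 lists therefore had the same sign in both pairs, which are single comparisons with no replicate check of their own.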

How the data were processed

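RNA of mandibular molar tooth germs was hybridised to 8 Affymetrix mouse arrays, with cRNA made from 5 µg total RNA, per the labels' protocols. The deposited values are MAS5 signal intensities on a linear scale, per the submitters' processing notes; which MAS5 version and scaling target were applied is not given in those notes. The trimmed mean of each deposited array is 500.0. Differences were taken on log2(signal + 9), 9 being the rounded 10th percentile of the values.

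Of 45037 probe sets that are not controls, 34945 had 1 gene symbol in the platform annotation of 2016, 932 had several and 9160 had none. The probe set with the highest mean stood for each of 18193 genes, and genes with a mean below the 40th percentile (log2 6.12) were left out, leaving 13008. limma 3.58.1 in R 4.3.3 fitted 4 group means (lmFit, eBayes with trend, 4 residual degrees of freedom) with Benjamini-Hochberg adjustment over all genes tested. In simulated data of this contrast over 13008 genes it recovered 31 of 57 genes changed by a log2 of 1, 63 of 63 by 2 and 80 of 80 by 3. The simulated noise was independent between arrays, with a spread averaged over genes of similar mean level. It left out each gene's own spread and the shifts that many genes of an array share. These figures therefore do not give the recovery in the real data. There, Ptch1 at -2.04 and Gli1 at -2.44 were not called in the main fit. Members and lists were chosen with earlier results of these data known.

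The naming rule took the Hedgehog targets and components, and the 12 non-overlapping genes with the smallest p in each direction. It also took up to 3 genes of each other list by p, Sostdc1 and Dusp6. Against own controls it took the 5 genes in each direction with the smallest p and no overlap between the agents. Sp5, Axin2, Wnt6, Edar, Il17rd, Spred1, Spred2, Spred3, Bmp2, Bmp4, Fgf4, Etv4, Etv5, Twist1, Fos, Smoc1, Cd68, Ambn and the muscle genes in the plots are outside this rule and were chosen after their values were seen. Arrays of the same number deviated from their group means with a correlation of 0.00157 for cyclopamine and PBS and 0.323 for 5E1 and cyclopamine. The remaining pairs of groups were not compared in this way. The labels name no pairing, so the main fit did not use the number, and a block on it was run as an alternative. Alternatives covered the pseudocount, filter, normalization, probe set choice, blocks and each array left out.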

Additional observations from a re-analysis of the deposited data

Results flagged for a closer look

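For 16 of 161 genes followed, both 5E1 arrays lay on one side of both 40-1a arrays and both cyclopamine arrays lay on the other side of both PBS arrays. Of all 13008 genes tested, 453 (3.48%) had this pattern, 208 (1.6%) with 5E1 above and 245 (1.88%) with 5E1 below, and the genes followed were in part chosen for not overlapping between the agents. The difference between these effects, (5E1 minus 40-1a) minus (cyclopamine minus PBS) on log2(signal + 9), was tested with limma over all genes and passed for none of them after Benjamini-Hochberg adjustment, the smallest adjusted p being 1.00. It was positive for Mybpc3, a muscle protein (1.95), Ppwd1 (1.81), Sirt4 (1.65), 1500009L16Rik (1.14), Reg3b (0.993), Dusp6 (0.963), Hey2 (0.780) and Spry1 (0.619). It was negative for Krt36 (-2.13), Trim68 (-1.25), 4933404O12Rik (-1.09), Ifitm5 (-0.821), the glycolytic enzyme Hk2 (-0.687), the stress factor Ddit3 (-0.522), the chaperone Hsph1 (-0.471) and Smo (-0.329).

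The 18S ribosomal RNA control probe sets, which no comparison used, had a mean signal of 2548 on cyclopamine replicate 1 and of 52.9 to 447.6 on the other 7 arrays.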

How the results depend on the processing

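Under 23 alternatives, 117 of 161 genes followed kept their sign in every alternative that gave them a value (at least 20 each) and 44 did not, 33 of these with a difference smaller than its SE. The mean of each gene's probe sets turned the sign, with -0.31 for Boc, 0.23 for Ccng1, 0.18 for Disp1, 0.0021 for Edaradd, 0.26 for Laptm5, 0.27 for Mycn, 0.050 for Osr2, 0.12 for Sfrp1, 0.51 for Sufu, 0.47 for Vcan and 0.066 for Spred1, and leaving out x and s probe sets gave 0.33 for Edaradd. Median centring gave -0.11 for Boc, -0.0023 for Cdon, -0.13 for Foxc2, -0.056 for Foxd1, -0.11 for Hsd11b2 and -0.038 for Tnni1. Quantile normalization gave -0.13 for Foxc2, -0.060 for Foxd1, -0.091 for Hsd11b2, 0.0044 for Spred1, 0.0017 for Spred2 and -0.022 for Tnni1. The array clusters as a block gave -0.18 for Cdon, 0.014 for Disp1, -0.019 for Dll1, -0.057 for Foxc2, -0.061 for Foxd1, -0.17 for Gas1, 0.062 for Mycn, -0.11 for Pdia4, -0.12 for Rsad2, 0.10 for Edar, 0.024 for Spred1, 0.10 for Spred2, 0.22 for Spred3, -0.35 for Tnni1 and 0.077 for Wnt6. With 1 array left out, the ranges that crossed 0 were -1.39 to 1.32 for Actc1, -0.21 to 0.64 for Alas2, -1.31 to 0.10 for Bmp4, -0.17 to 0.23 for Boc, -0.16 to 0.43 for Cdon, -0.17 to 0.88 for Dll1, -0.30 to 0.28 for Edar, -0.12 to 0.81 for Fcgr3, -0.19 to 2.11 for Fos, -0.32 to 0.34 for Foxc2, -0.18 to 0.34 for Foxd1, -1.15 to 0.52 for Foxf1, -0.18 to 0.67 for Gas1, -0.44 to 0.13 for Gli2, -0.26 to 0.78 for Gli3, -1.07 to 1.58 for Hba-x, -0.48 to 0.54 for Hsd11b2, -0.76 to 0.31 for Il17rd, -0.37 to 0.19 for Irf7, -1.58 to 0.085 for Krt1, -0.87 to 0.10 for Krt17, -0.054 to 0.92 for Krt18, -0.0093 to 1.43 for Mfap5, -0.42 to 0.24 for Mycn, -2.02 to 0.97 for Myl1, -0.60 to 0.16 for Oas1a, -1.08 to 0.14 for Osr2, -0.080 to 0.79 for Rsad2, -1.04 to 0.50 for Sfrp1, -0.18 to 0.54 for Slc4a1, -0.68 to 0.54 for Sox2, -0.48 to 0.43 for Spred1, -0.15 to 0.10 for Spred2, -0.47 to 0.28 for Spred3, -1.49 to 1.69 for Tnni1, -1.59 to 0.0060 for Twist1 and -0.82 to 0.27 for Wnt6.

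In the main fit, 59 genes were higher and 55 lower by at least 2-fold without overlap. These counts were 33 and 81 with quantile normalization and 32 and 98 with median centring. With pseudocount 1 they were 81 and 68, and with pseudocount 32 they were 26 and 31. They were 451 and 278 with no filter, 10 and 22 with a filter at the 60th percentile, and 738 and 493 on log2 of the deposited signal. Leaving out single arrays gave 59 to 281 higher and 55 to 283 lower. The FGF target median was 0.27 with the mean of probe sets and 0.26 to 0.49 with 1 array left out.

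With the replicate number as a block, limma called 1 gene, Ptch1 (-2.04), and 1 of all probe sets. The array clusters as a block gave 2 genes, Ptch1 (-2.06) and Gli1 (-1.88), 1 of all probe sets, and 3 genes against own controls. Over all probe sets, 0 to 127 were called with 1 array left out, the 127 without cyclopamine replicate 2. The cause of these changes was not tested. Precision is limited by 2 arrays per group.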

Other observations

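Gene lists that no comparison above described are given here as values, log2(signal + 9) after 5E1 minus after cyclopamine, against a median of -0.04 over all genes, of which 11% were higher and 17.1% lower without overlap. Of 26 genes of mitosis and replication, 3 were higher and 5 lower without overlap, with a median of -0.00067 (-0.04 to 0.08 with 1 array left out), Plk1, a mitotic kinase, at -0.46 ± 0.24 and the cyclins Ccne1 at -0.55 ± 0.23 and Ccne2 at 0.36 ± 0.21. Of 14 cell cycle inhibitors and p53 targets, 1 was higher and 1 lower, with a median of 0.04 (-0.01 to 0.17 with 1 array left out). Cdkn1a, the inhibitor p21 that marks the enamel knot, was at 0.58 ± 0.39 with overlapping arrays. Of 19 immediate early and heat shock genes, 3 were higher and 1 lower, and the median was 0.19, or -0.10 without 5E1 replicate 2. Junb stood at 0.65 ± 0.27 and Atf3 at 0.67 ± 0.29. Of 16 cholesterol synthesis genes, 3 were higher and 1 lower, with Sc5d at 0.54 ± 0.29 and a median of 0.13 that was -0.0037 with median centring and ran from -0.03 to 0.24 with 1 array left out.

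For the lists that follow, each median is given with its range when 1 array is left out. Of 17 hypoxia and glycolysis genes, 1 was higher and 4 lower (median -0.14, -0.28 to 0.10), with Hk2, a hexokinase, at -0.43 ± 0.19. Of 14 genes of xenobiotic and oxidative stress response, 0 were higher and 1 lower (median -0.06, -0.16 to 0.04), and of 12 of the unfolded protein response 1 was higher and 3 lower (median -0.07, -0.12 to 0.04). Of 9 pericyte and smooth muscle genes 8 had a negative difference, 2 without overlap (median -0.30, -0.75 to -0.05), and of 11 cartilage genes 1 was higher and 3 lower (median -0.17, -0.28 to 0.17, and 0.03 with no filter). For 11 genes of neurons and Schwann cells, 1 was higher and 1 lower (median -0.20, -0.49 to 0.27), with the glial S100b at -0.98 ± 0.66. For 20 extracellular matrix genes, 0 were higher and 1 lower (median 0.01, -0.47 to 0.42). The 6 erythroid genes had medians of -0.02 and 0.25 in the 2 pairs and of -0.17 to 0.54 with 1 array left out. Only 4 interferon response genes and 2 of salivary gland and tongue, 1 of them Krt36, were above the filter, with medians of -0.04 (-0.32 to 0.24) and -0.92 (-1.30 to -0.55).

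Among 4 sex-linked genes, 3 did not overlap between the agents and Kdm5d did. Uty, on the Y chromosome, had signals of 378 and 414 after 5E1 and 138 and 276 after cyclopamine, a difference of 0.98 ± 0.32, and Eif2s3y had 502 and 752 after 5E1 and 346 and 414 after cyclopamine (0.69 ± 0.27). Xist, transcribed from the inactive X chromosome, had 1855 and 1951 after 5E1 and 3094 and 2302 after cyclopamine (-0.49 ± 0.18). The labels do not give the sex of the embryos, and the part of the sex ratio in other results was not tested.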
